A study of Mus musculus with 6 samples.

Results

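The genes described here are the components of the TGF-beta and BMP signalling pathway: ligands, receptors, Smads, Id target genes, latent TGF-beta binding proteins and antagonists. A list of 44 such genes was matched by symbol to the Ensembl genes of 6 RNA-seq libraries, and all 44 were found among the 33460 genes listed. Of these, 40 had a value of at least 1 FPKM (the number of sequenced fragments on a gene, divided by exon length and by library size) in at least 3 libraries and entered the test. *Inhba*, *Smad9*, *Ltbp2* and *Grem1* did not. No member passed this filter through 1 group only.

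The libraries were made from brains of *NG2-DsRed/Pdgfrb-eGFP* mice at postnatal day 6. In 3 of them, cells positive for both reporters had been sorted by FACS (fluorescence-activated cell sorting), and these are called mural cells, the pericytes and smooth muscle cells that surround vessels. The other 3 hold microvascular fragments, short pieces of vessel captured with anti-CD31 beads, which contain endothelial cells together with their mural cells. Both groups carried the same 2 transgenes, were of the same age and had no other treatment. DsRed is driven by the promoter of *Cspg4* (NG2) and eGFP by that of *Pdgfrb*, and neither gene is restricted to mural cells. According to the methods, 1 side of each of 3 brains, from mice of either sex, went to FACS and the other to the fragments, and the labels do not tell which library came from which animal. The comparison of the groups asks which transcripts are more or less abundant in the sorted mural cells than in the microvascular fragments.

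A ligand dimer of this family brings together type II and type I receptors, and the type II receptor phosphorylates the type I receptor. TGF-beta and activin receptors then phosphorylate Smad2 and Smad3, while BMP receptors, and Acvrl1 in endothelium, phosphorylate Smad1, Smad5 and Smad9. These Smads enter the nucleus with Smad4 and induce target genes. The Id genes are targets of Smad1, Smad5 and Smad9, and the inhibitory Smads, also induced, limit the signal. In vessels the pathway acts between endothelial cells and mural cells, and defects of *Eng* or *Acvrl1* cause hereditary haemorrhagic telangiectasia.

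The sorted libraries were the shallower ones. The number of sequenced fragments on protein-coding genes was approximated from the value of 1 fragment and the longest transcript of each gene. It came to 1.04 to 2.36 M in the mural cell libraries and to 5.42 to 5.94 M in the microvascular libraries. These counts are after the removal of duplicated reads and are called read fragments, to keep them apart from the vessel fragments. All 12 mural cell markers were called higher in mural cells, with a median ratio of 9.10 (range 6.47 to 10.9), as were all 5 smooth muscle markers. Of 12 endothelial markers 7 were called lower, and the median was 68.4% of the level in the fragments (35.3 to 129%), so endothelial transcripts were abundant in the sorted libraries. The 12 endothelial markers summed to 1649 to 2157 FPKM in mural cell libraries and to 2265 to 2660 in fragments. All 8 microglial markers were lower, at a median of 8.94% and with sums of 151 to 191 against 1632 to 1883 FPKM. Of 7 fibroblast markers 6 were higher, with sums of 530 to 713 against 81.6 to 86.1 FPKM. The 8 astrocyte markers summed to 983 FPKM in mural cell library 3 and to 299 and 351 in the other mural cell libraries, so library 3 stood apart. The 5 smooth muscle markers summed to 605 FPKM in mural cell library 1 and to 1358 and 1551 in libraries 2 and 3, so library 1 was the low one there. Of 7 neuronal markers 1 was called lower, of 6 markers of oligodendrocyte progenitors 1 was called higher, and none of 5 erythroid and none of the 8 astrocyte markers was called. In none of these lists was a marker at 0 in all 3 mural cell libraries. A list of 10 immediate early genes, which respond within minutes to stimulation or tissue handling, was added after values had been seen. All 10 were lower in mural cells, at a median of 9.94% (2.34 to 27.4%). A member's ratio reflects both how many cells of a type were in the sample and how much RNA each held, and in such bulk samples fewer cells of a type and less RNA per cell cannot be told apart.

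**Figure D1:**
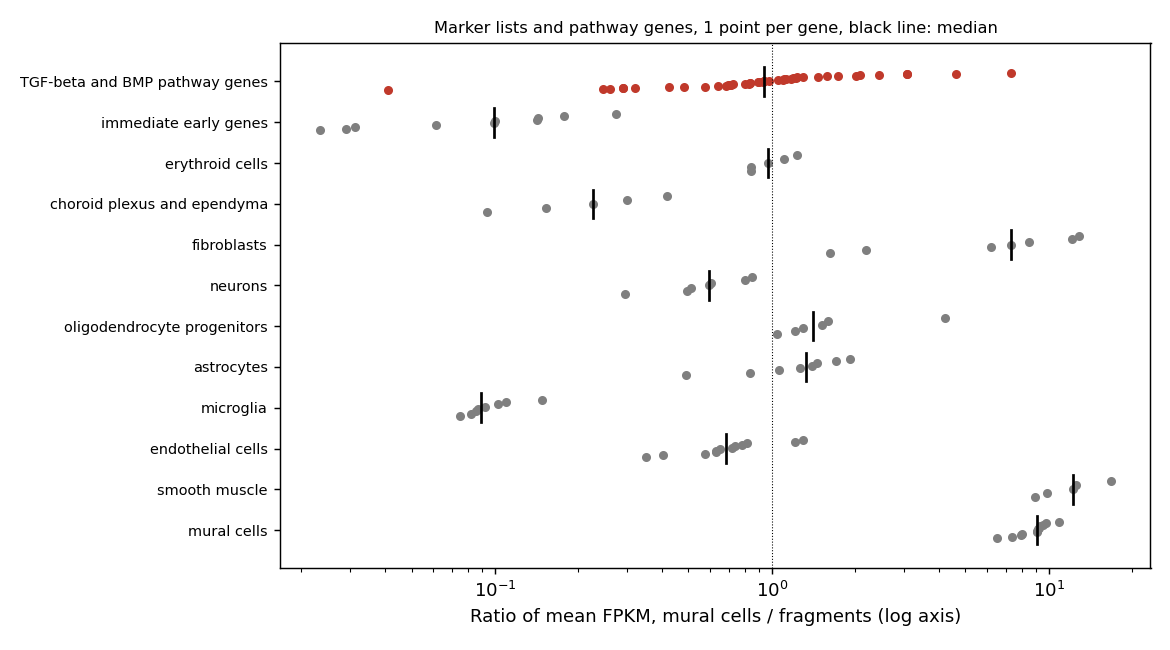
Ratio of mean FPKM in mural cells to that in microvascular fragments (log axis), with 1 point per gene and 1 row per marker list or for the pathway genes. The 12 mural cell markers lie between 6.47 and 10.9 and the 12 endothelial markers between 0.353 and 1.29. Of the pathway genes, *Tgfb3*, at 7.27, was the only one inside the range of the mural cell markers. The lower end of that range is *Cspg4*, whose promoter drives DsRed, and the next marker, *Rgs5* at 7.38, lay above *Tgfb3*. Inside the range of the endothelial markers were 27, among them *Smad9* and *Ltbp2*, which were not tested across genes. That range also holds the median ratio of all genes tested, 0.943, so a place in it does not mark a gene as endothelial. The lowest pathway point is *Grem1*, which had 1 read fragment in all mural cell libraries.

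Of the 40 members tested, 5 were called higher in mural cells (*Tgfb2*, *Tgfb3*, *Bmp5*, *Bmpr1a* and *Ltbp3*) at an adjusted p under 0.05, and 9 were called lower (*Tgfb1*, *Tgfbr1*, *Tgfbr2*, *Smad6*, *Smad7*, *Id1*, *Id2*, *Ltbp4* and *Skil*). Over all 14801 genes tested, 9.34% were called higher and 13.0% lower. With a ratio of more than 2-fold required as well, 5 members were higher and 7 lower, where 6.43% and 10.1% of all genes met these limits. *Tgfb1* and *Tgfbr2* were the lower members with a ratio of less than 2-fold. The remaining 26 members were not called. Of these, *Acvr1*, *Tgfbr3* and *Smad4* had an unadjusted p under 0.05. Of the members tested, the groups did not overlap for 20, of which 8 lay above and 12 below the fragments. Of all genes tested, 16.5% lay above and 24.5% below. The median log2 difference was -0.13 for the members and -0.12 for all genes tested. Log2 differences are of log2(FPKM + 1), mural cells minus fragments, and understate the change of genes with low values.

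**Figure D2:**
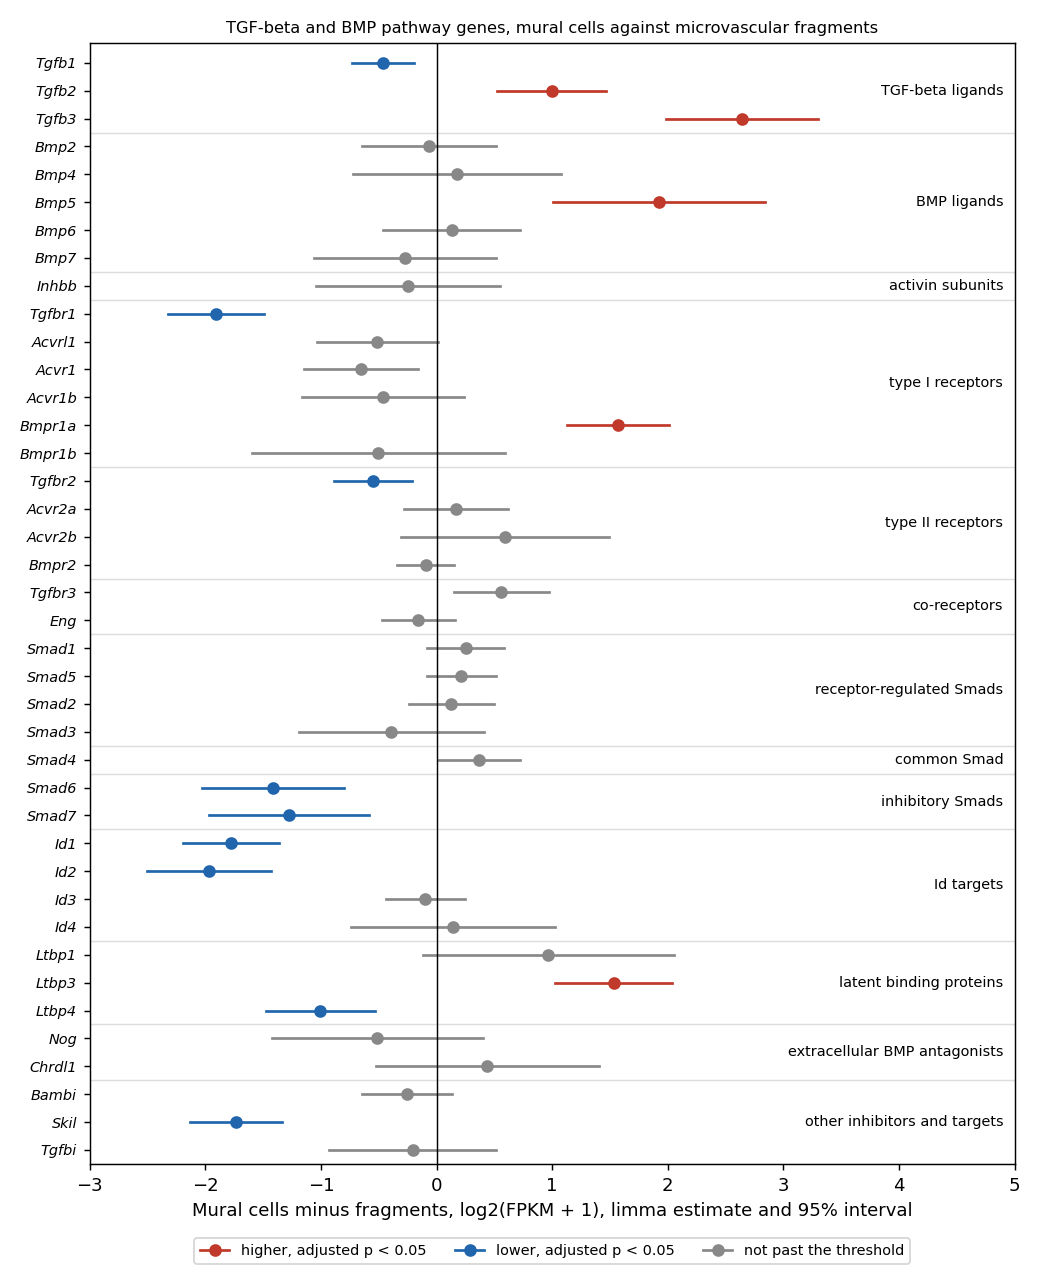
Log2 difference in FPKM + 1 between mural cells and microvascular fragments for the 40 members tested, ordered by role, with points for the limma estimate and bars for its 95% interval. Red marks the 5 members called higher, blue the 9 called lower and grey the 26 not called. *Tgfb3* had the largest difference above 0, at 2.64, and *Id2* the largest below 0, at -1.97.

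The 3 TGF-beta ligands differed in direction. *Tgfb3* (ENSMUSG00000021253, chromosome 12, 87397694 to 87419991 on the minus strand of NCBIM37, the build of all gene positions given) encodes a secreted ligand that is also known from palate closure. It measured 30.3, 58.2 and 58.6 FPKM in mural cell libraries 1 to 3 and 7.70, 6.98 and 5.54 FPKM in microvascular libraries 1 to 3. Every mural cell library was above every microvascular library, with library 1, which also had the lowest sum of smooth muscle markers, the lowest of the sorted libraries. Their part in the spread of *Tgfb3*, and in that of *Acvr2b* and *Ltbp1*, which were also lowest in library 1, was not tested. The means of 49.0 ± 16.2 and 6.74 ± 1.10 FPKM (SD, n = 3 per group, as for all means given) had a ratio of 7.27, and the log2 difference was 2.64 (SE 0.28, adjusted p 7.42e-04). The gene has a single transcript, and approximately 171, 138 and 147 read fragments stood behind the values in mural cells and 112, 94 and 82 in the microvascular fragments. The ratio lay between 6.57 and 8.67 when any 1 library was left out. *Tgfb3* passed from above 33.3% of the genes tested in the fragments to above 86.4% in mural cells.

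*Tgfb2* (ENSMUSG00000039239, chromosome 1, 188447065 to 188529871, minus strand), a ligand that needs the co-receptor Tgfbr3 for strong binding to Tgfbr2, measured 40.5, 48.5 and 68.5 FPKM in mural cells and 26.5, 23.3 and 26.0 FPKM in fragments. The groups did not overlap, and library 3 was the highest of the mural cell libraries. The ratio of means was 2.08, with a log2 difference of 0.99 (SE 0.20, adjusted p 0.0117). Without microvascular library 2 the call was lost, at an adjusted p of 0.0518 and a ratio of 2.00. Without mural cell library 3 the call held but the ratio was 1.76, under the 2-fold limit. The same library had the high sum of astrocyte markers, 983 FPKM, and their part in its *Tgfb2* level was not tested.

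*Tgfb1* (ENSMUSG00000002603, chromosome 7, 26472021 to 26490096, plus strand), the ligand most often linked to smooth muscle differentiation and also made by microglia, was lower in mural cells. It measured 66.0, 58.5 and 59.8 FPKM there and 88.0, 77.9 and 89.6 FPKM in fragments. The groups did not overlap, but the ratio was 0.721 and the log2 difference -0.46 (SE 0.11, adjusted p 0.0252). This call was lost without any 1 of the 3 microvascular libraries and without mural cell library 2 or 3, with an adjusted p of up to 0.124. The microglial markers, with a sum of 151 to 191 FPKM in mural cells and of at least 1632 in fragments, moved with it. The ratio of *Tgfb1* lay close to the median of the 12 endothelial markers, 0.684. The part of either marker list in the result was not tested. By mean FPKM, 61.4 ± 4.02 in mural cells and 85.1 ± 6.33 in fragments, *Tgfb1* was the most abundant of the 3 ligands in both groups.

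The makeup of the ligand pool was compared within each library, where scaling between libraries has no effect. *Tgfb1* held 48.3, 35.4 and 32.0% of the summed FPKM of the 3 ligands in mural cells and 72.0, 72.0 and 73.9% in fragments. Its mean share was 38.6 ± 8.58% against 72.7 ± 1.11%, a difference of -34.1 percentage points, with no overlap (exact permutation test, 2-sided, p 0.1, the smallest that 3 against 3 samples allow). Of the 4 shares tested in this way, this one and those of *Acvrl1* and *Id4* had an adjusted p of 0.133. *Tgfb2* held a mean of 31.9% in mural cells and 21.6% in fragments. *Tgfb3* held 29.6 ± 6.74% and 5.78 ± 1.05%. The 3 ligands were thus present at similar mean shares in the mural cell libraries, which also held endothelial transcripts, whereas *Tgfb1* prevailed in the fragments. Their sum was 137, 165 and 187 FPKM in mural cells and 122, 108 and 121 FPKM in fragments.

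**Figure D3:**
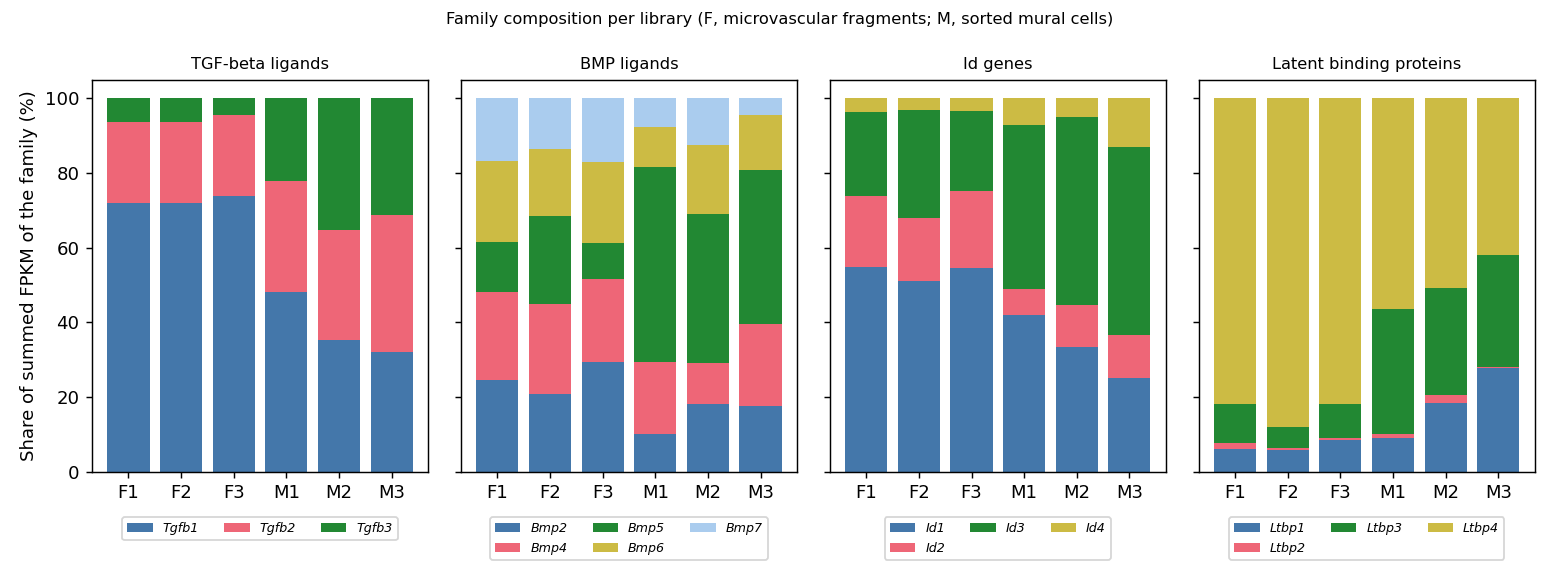
Composition of the TGF-beta ligands, BMP ligands, Id genes and latent TGF-beta binding proteins in each library, as percent of the summed FPKM of the family, with 1 stacked bar for each microvascular library (F1 to F3) and each mural cell library (M1 to M3). *Tgfb1* takes between 72.0 and 73.9% of its family in fragments and between 32.0 and 48.3% in mural cells.

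Among the 5 BMP ligands, which signal mainly through Smad1, Smad5 and Smad9, 1 was higher and 4 were not called. *Bmp5* (ENSMUSG00000032179, chromosome 9, 75623171 to 75748117, plus strand), the ligand affected in the short ear mouse, measured 23.3, 10.5 and 13.2 FPKM in mural cells and 3.58, 4.88 and 1.71 FPKM in fragments. No mural cell library came down to the level of the fragments. The means were 15.7 ± 6.73 and 3.39 ± 1.59 FPKM, with a ratio of 4.63 and a log2 difference of 1.92 (SE 0.39, adjusted p 0.0123). Exons of the noncoding gene *Gm16662*, on the opposite strand, cover 46.7% of the exon bases of *Bmp5*. The kit keeps strand, but whether strand was used for the FPKM is not given in the sources used here, so these reads may not be told apart. In 9 other members such opposite exons cover 1.58 to 10.3% of the exon bases. Of the fibroblast markers 6 of 7 were also higher in mural cells, as were all 12 mural cell and all 5 smooth muscle markers. The fibroblast markers summed to 530, 713 and 632 FPKM in mural cell libraries 1 to 3, lowest in the library where *Bmp5* was highest. The part of any of these lists in the result was not tested.

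The other BMP ligands were low in both groups, and their group ranges overlapped. *Bmp2*, a ligand of bone formation, measured 4.54, 4.81 and 5.67 FPKM in mural cells and 6.53, 4.30 and 5.19 FPKM in fragments, from 12 to 27 and from 61 to 100 read fragments. *Bmp4*, a ligand of early mesoderm, spread more, from 8.66 and 7.09 FPKM in mural cell libraries 1 and 3 to 2.88 in library 2, around the 6.24, 4.92 and 3.89 FPKM of the fragments. *Bmp6*, which in liver endothelium controls hepcidin, varied least in mural cells, at 4.84, 4.86 and 4.75 FPKM, against 5.73, 3.66 and 3.79 FPKM. Its mural cell values rested on approximately 27, 11 and 12 read fragments, too few to measure so small a spread. *Bmp7*, a ligand of kidney development, measured 3.41, 3.33 and 1.46 FPKM against 4.48, 2.79 and 3.00 FPKM. The adjusted p values of these 4 genes lay between 0.609 and 0.874. *Bmp5* made up 44.4 ± 6.72% of the summed FPKM of the 5 ligands in mural cells and 15.6 ± 7.24% in fragments.

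The activin subunits were near the limit of detection. *Inhbb*, the beta B subunit, measured 1.39, 1.33 and 3.44 FPKM in mural cells, from 10, 4 and 11 read fragments, and 2.86, 2.10 and 2.44 FPKM in the microvascular fragments (adjusted p 0.655). *Inhba*, the beta A subunit, was not tested across genes. Its values were 0.850, 0 and 1.91 FPKM in mural cells and 0.493, 0.887 and 0.367 FPKM in fragments, which overlapped (exact permutation test, 2-sided, p 0.8).

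The type I receptors, which choose the Smads that are phosphorylated, contained both the largest fall and the largest rise among the receptors. *Tgfbr1* (ENSMUSG00000007613, chromosome 4, 47366094 to 47427803, plus strand), also called Alk5, is the type I receptor for the TGF-beta ligands. It measured 14.7, 22.9 and 20.0 FPKM in mural cells and 69.9, 72.3 and 79.4 FPKM in fragments. The highest mural cell library did not come near the lowest microvascular library. The means of 19.2 ± 4.19 and 73.9 ± 4.94 FPKM differed 3.85-fold, with a log2 difference of -1.91 (SE 0.18, adjusted p 4.34e-04). Microglia also express *Tgfbr1*, and their 8 markers were at a median of 8.94% of their level in fragments. The part of these cells in the result was not tested.

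*Bmpr1a* (ENSMUSG00000021796, chromosome 14, 35223920 to 35316527, minus strand), also called Alk3, is a type I receptor for BMP ligands. Its levels of 56.7, 67.4 and 48.9 FPKM in mural cells were all above those of 14.8, 21.3 and 20.3 FPKM in fragments. The means of 57.6 ± 9.30 and 18.8 ± 3.47 FPKM had a ratio of 3.07, and the log2 difference was 1.57 (SE 0.19, adjusted p 0.00126). *Bmpr1a* was thus the most abundant type I receptor after *Acvrl1* in the mural cell libraries, by FPKM. Endothelial transcripts were abundant in these libraries too, so this order is that of a mixture of cells. Exons of an antisense transcript, *Gm17110*, at a mean of 3.96 FPKM over the 6 libraries, cover 4.57% of its exon bases.

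*Acvrl1*, or Alk1, the type I receptor of endothelium, measured 96.6, 114 and 63.4 FPKM in mural cells and 139, 136 and 108 FPKM in fragments. The groups overlapped, the ratio was 0.714 and the log2 difference was -0.51 (95% interval -1.04 to 0.01, adjusted p 0.151). This ratio lay close to the median of the 12 endothelial markers, 0.684. *Acvrl1* held 82.0 ± 5.53% of the sum of *Acvrl1* and *Tgfbr1* in mural cells and 63.2 ± 4.83% in fragments, a difference of 18.8 percentage points with no overlap (exact permutation test, 2-sided, p 0.1).

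*Acvr1*, or Alk2, a receptor for BMP and activin ligands, measured 27.2, 17.5 and 15.9 FPKM in mural cells and 31.1, 33.2 and 30.1 FPKM in fragments. The groups did not overlap, but the adjusted p was 0.0650. Without mural cell library 1 the log2 difference moved from -0.65 to -0.88 and the adjusted p was 0.00930. *Acvr1b*, or Alk4, the activin type I receptor, measured 2.56, 5.24 and 5.36 FPKM against 5.55, 6.45 and 6.57 FPKM (adjusted p 0.320), with no overlap and from 12 to 14 read fragments in each mural cell library. *Bmpr1b*, or Alk6, was low and spread widely, at 0.656, 1.69 and 4.28 FPKM in mural cells and 2.64, 4.63 and 2.27 FPKM in fragments (adjusted p 0.494).

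Of the 4 type II receptors, which are shared between ligands and switch on the type I receptors, 1 was lower and 3 were not called. *Tgfbr2* (ENSMUSG00000032440, chromosome 9, 115993415 to 116084383, minus strand), the type II receptor for the TGF-beta ligands, measured 55.3, 46.6 and 39.8 FPKM in mural cells and 66.7, 68.1 and 72.5 FPKM in fragments. All mural cell libraries were below the fragments, at a ratio of 0.683 and a log2 difference of -0.55 (SE 0.14, adjusted p 0.0313). This ratio was close to the median of the 12 endothelial markers, 0.684, and their part in the result was not tested. As for *Tgfb1*, the call was lost without any 1 microvascular library and without mural cell library 2 or 3, with an adjusted p of up to 0.125.

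*Bmpr2*, the type II receptor for BMP ligands, differed least among the receptors. It measured 85.7, 81.7 and 83.3 FPKM in mural cells and 89.1, 96.0 and 82.9 FPKM in fragments, with a log2 difference of -0.09 (95% interval -0.34 to 0.15). In both groups it was the most abundant type II receptor. *Acvr2a*, an activin receptor, measured 12.7, 12.8 and 15.5 FPKM against 11.0, 10.9 and 14.5 FPKM (adjusted p 0.588). *Acvr2b*, its paralogue, measured 5.31, 15.4 and 14.6 FPKM against 6.16, 6.69 and 7.54 FPKM (adjusted p 0.319), and mural cell library 1 alone lay among the fragments. Without that library the ratio was 2.21 in place of 1.73 and the adjusted p 0.0166.

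The 2 co-receptors were abundant in both groups and were not called. *Eng*, endoglin, the co-receptor of endothelium for Acvrl1, measured 149, 117 and 131 FPKM in mural cells and 155, 157 and 130 FPKM in fragments. The ranges overlapped, the ratio was 0.897 and the log2 difference was -0.16 (95% interval -0.48 to 0.16). By mean FPKM it was the most abundant member in both groups. Its ratio lay within the range of the endothelial markers, which also holds the median of all genes tested, 0.943. *Tgfbr3*, betaglycan, which presents Tgfb2 to the receptors, measured 51.1, 58.1 and 60.1 FPKM against 46.0, 39.1 and 30.1 FPKM. The groups did not overlap, and the log2 difference was 0.56 (95% interval 0.15 to 0.97, adjusted p 0.0571). With median-ratio scaling the adjusted p was 0.0459.

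**Figure D4:**
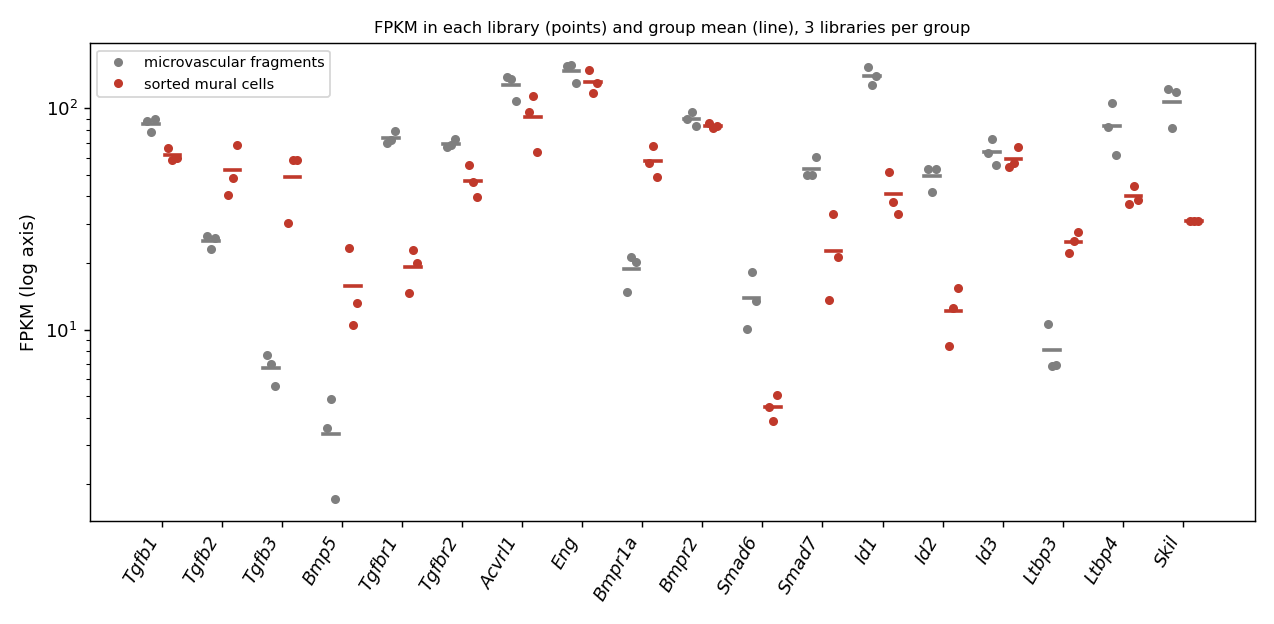
FPKM (log axis) of selected members in each of the 3 mural cell and 3 microvascular libraries (points), with the mean of each group (line). *Tgfb3* lies at 30.3 to 58.6 FPKM in mural cells and at 5.54 to 7.70 in fragments, whereas *Id2* lies at 8.46 to 15.4 in mural cells and at 42.0 to 53.3 in fragments.

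None of the 4 receptor-regulated Smads tested, and not the common Smad, was called. *Smad1*, of the BMP branch, measured 37.3, 35.0 and 41.7 FPKM in mural cells and 36.3, 29.8 and 29.2 FPKM in fragments (adjusted p 0.253). *Smad5*, of the same branch, measured 49.2, 62.7 and 54.8 FPKM against 46.0, 49.0 and 47.8 FPKM. The groups of *Smad5* did not overlap, but the ratio was 1.17 and the adjusted p 0.278. *Smad9*, the remaining BMP Smad, was barely detected, at 0.545, 0.260 and 1.47 FPKM against 0.721, 0.824 and 0.790 FPKM, and was not tested across genes (exact permutation test, 2-sided, p 1). It rested on 5, 1 and 6 read fragments in mural cells.

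*Smad2*, of the TGF-beta branch, measured 38.2, 26.9 and 33.4 FPKM in mural cells and 29.9, 28.3 and 30.7 FPKM in fragments (adjusted p 0.613). *Smad3*, its partner, measured 25.8, 26.7 and 65.8 FPKM against 51.6, 47.0 and 43.5 FPKM, and mural cell library 3 stood apart from the other mural cell libraries. With all libraries the adjusted p was 0.462. Without mural cell library 3 the log2 difference was -0.82, in place of -0.39, and the adjusted p 0.00856. The same library had the high sum of astrocyte markers, 983 FPKM, and their part in its *Smad3* level was not tested. *Smad4*, the partner of all these Smads, measured 75.9, 58.9 and 63.3 FPKM against 53.5, 56.1 and 43.4 FPKM. All mural cell libraries were above the fragments, at a ratio of 1.29 and an adjusted p of 0.133. The BMP Smads (*Smad1*, *Smad5* and *Smad9*) held 57.3 ± 7.48% of the FPKM of the 5 receptor-regulated Smads in mural cells and 51.0 ± 0.489% in fragments (exact permutation test, 2-sided, p 0.4). The difference of 6.31 percentage points was 2.65 without mural cell library 2 and 10.1 without library 3.

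Both inhibitory Smads were lower in mural cells. They are feedback inhibitors that the pathway itself induces. *Smad6* (ENSMUSG00000036867, chromosome 9, 63800953 to 63869866, minus strand), which acts mainly against BMP signals, measured 4.48, 3.88 and 5.04 FPKM in mural cells and 10.0, 18.2 and 13.4 FPKM in fragments. Approximately 21, 8 and 11 read fragments, by the longest transcript, stood behind the mural cell values. The groups were apart, with a 3.11-fold difference in means of 4.46 ± 0.580 and 13.9 ± 4.13 FPKM and a log2 difference of -1.42 (SE 0.26, adjusted p 0.00846). *Smad7* (ENSMUSG00000025880), which acts against TGF-beta and BMP signals, measured 13.6, 33.4 and 21.4 FPKM against 50.1, 50.2 and 60.2 FPKM. The mural cell libraries differed more among themselves than the fragments did, but all lay below them, and the means differed 2.35-fold (log2 difference -1.28, SE 0.29, adjusted p 0.0199). The call for *Smad7* was lost without any 1 microvascular library, at an adjusted p of up to 0.0832. Together they came to 18.0, 37.3 and 26.4 FPKM in mural cells, against 60.1, 68.4 and 73.6 FPKM in fragments.

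The 4 Id genes encode proteins that bind basic helix-loop-helix factors and keep them from DNA, and they are direct targets of BMP Smads. They divided into a lower and an uncalled pair. *Id1* (ENSMUSG00000042745, chromosome 2, 152561987 to 152563146, plus strand) measured 51.8, 37.6 and 33.3 FPKM in mural cells and 153, 128 and 141 FPKM in fragments. The groups were far apart, and the means of 40.9 ± 9.64 and 141 ± 12.6 FPKM differed 3.44-fold (log2 difference -1.78, SE 0.18, adjusted p 5.52e-04). *Id2* (ENSMUSG00000020644, chromosome 12, 25778666 to 25780957, minus strand) measured 8.46, 12.5 and 15.4 FPKM against 53.1, 42.0 and 53.3 FPKM. The 4.08-fold difference in means had a log2 difference of -1.97 (SE 0.23, adjusted p 0.00109). The values rested on 16, 10 and 13 read fragments in mural cells and on 261, 191 and 266 in the microvascular fragments, so the ratio of pooled counts, 0.222, had an exact 95% interval of 0.157 to 0.307, which covers counting error only.

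*Id3* was at the same high level in both groups, at 54.2, 56.8 and 66.8 FPKM in mural cells and 62.6, 72.9 and 55.4 FPKM in fragments. The log2 difference was -0.10, with a 95% interval of -0.44 to 0.24 that does not reach the difference of *Id1* or *Id2*. *Id4* measured 8.90, 5.52 and 17.4 FPKM against 10.0, 7.59 and 8.38 FPKM and overlapped (adjusted p 0.828), from 23, 6 and 20 read fragments in mural cells. By mean FPKM it was the least abundant Id gene in both groups. It held 8.40 ± 4.21% of the Id sum in mural cells and 3.29 ± 0.282% in fragments (exact permutation test, 2-sided, p 0.1). Without mural cell library 3, which had the highest *Id4* level and the high sum of astrocyte markers, the difference was 2.77 percentage points in place of 5.11. *Id3* held 48.2 ± 3.70% and 24.3 ± 4.14%, *Id1* a mean of 33.5% and 53.6%, and *Id2* a mean of 9.87% and 18.8%. The leading Id gene was therefore *Id3* in the mural cell libraries, which also held endothelial transcripts, and *Id1* in fragments. The sum of the 4 genes was 123, 113 and 133 FPKM in mural cells and 279, 251 and 258 FPKM in fragments.

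The 10 immediate early genes were lower in mural cells together with *Id1*, *Id2*, *Smad7* and *Skil*, which are also quickly induced. They summed to 204 to 263 FPKM in mural cells and to 2341 to 2849 FPKM in fragments. The preparations differed too, since the fragments were captured with beads and the mural cells were sorted. The part of either in the results for these members was not tested.

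Promoter sequences were read for the Id genes and inhibitory Smads, of which some were lower and others were not called. RefSeq sequences in the build GRCm38.p6 were at hand for 31 of the 44 members, in 39 windows of 250 bases before a transcript start. They are shown for *Id2*, *Id3*, *Id4* and *Smad6*, 5′ to 3′ on the gene's strand. *Id1* and *Smad7*, both lower in mural cells, had no window. Capitals mark GGCGCC, the core of an element that BMP Smads bind, and CAGAC or its reverse complement GTCTG, which hold the core that Smad3 and Smad4 bind. Both strands were searched, and the motifs do not overlap. The windows are chr12:25096093-25096342 (minus strand) for *Id2*, chr4:136143572-136143821 (plus) for *Id3*, chr13:48260866-48261115 (plus) for *Id4* and chr9:64022060-64022309 (minus) for *Smad6*.
Id2: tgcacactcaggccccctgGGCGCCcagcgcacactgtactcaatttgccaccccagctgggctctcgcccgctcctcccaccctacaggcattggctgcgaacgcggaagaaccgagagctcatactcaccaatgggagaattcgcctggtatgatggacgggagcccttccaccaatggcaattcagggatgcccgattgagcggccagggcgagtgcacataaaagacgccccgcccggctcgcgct
Id3: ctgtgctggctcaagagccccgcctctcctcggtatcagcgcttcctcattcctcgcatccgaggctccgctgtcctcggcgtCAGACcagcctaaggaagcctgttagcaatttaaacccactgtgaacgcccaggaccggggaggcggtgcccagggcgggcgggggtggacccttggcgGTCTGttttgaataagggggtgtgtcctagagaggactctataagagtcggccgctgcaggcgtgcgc
Id4: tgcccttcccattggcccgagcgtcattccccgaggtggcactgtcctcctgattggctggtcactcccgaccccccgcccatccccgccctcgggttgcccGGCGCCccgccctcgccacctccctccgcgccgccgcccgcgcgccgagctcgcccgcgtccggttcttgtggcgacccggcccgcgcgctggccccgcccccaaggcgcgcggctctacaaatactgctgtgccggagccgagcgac
Smad6: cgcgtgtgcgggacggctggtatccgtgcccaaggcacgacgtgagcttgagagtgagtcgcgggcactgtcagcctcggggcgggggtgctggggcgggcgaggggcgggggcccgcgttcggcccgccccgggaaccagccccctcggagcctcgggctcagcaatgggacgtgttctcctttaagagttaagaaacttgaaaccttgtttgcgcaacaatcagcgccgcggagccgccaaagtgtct
*Id2*, which was lower in mural cells, and *Id4*, which was not called, each had 1 GGCGCC in this window. *Id3*, which was not called, had CAGAC or GTCTG 2 times and no GGCGCC, and *Smad6* had neither. GGCGCC was in 11 of the 39 member windows (28.2%) and in 9.59% of all 32851 windows of the table. The member windows also had more G and C, with a median of 64.0% against 52.4%. Of the 9 windows at hand for members called lower, which come from 6 genes, 4 held GGCGCC. These belong to 3 genes, *Id2*, *Tgfbr1* and *Ltbp4*, the last with a pair of overlapping windows. Of the 4 windows of members called higher, 1 held it. CAGAC on either strand was in 46.2% of member windows and in 42.2% of all windows, in 2 of the 9 windows of lower members and in 3 of the 4 of higher members. A match is a run of letters, and no binding was measured.

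Of the 4 latent TGF-beta binding proteins, matrix proteins of which most hold the inactive TGF-beta complex, 1 was higher, 1 was lower, 1 was not called and 1 was not tested across genes. *Ltbp3* (ENSMUSG00000024940, chromosome 19, 5740904 to 5758532, plus strand) measured 22.1, 25.0 and 27.7 FPKM in mural cells and 10.6, 6.83 and 6.89 FPKM in fragments. The highest microvascular library did not come up to the lowest mural cell library. The means of 25.0 ± 2.80 and 8.10 ± 2.15 FPKM had a ratio of 3.08 (log2 difference 1.53, adjusted p 0.00245). *Ltbp4* (ENSMUSG00000040488, chromosome 7, 28090155 to 28122711, minus strand), which also organises elastic fibres, measured 37.1, 44.5 and 38.6 FPKM against 82.3, 106 and 61.7 FPKM. The groups were apart, with a 2.08-fold difference (log2 difference -1.01, SE 0.20, adjusted p 0.0113).

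*Ltbp1* measured 5.88, 16.1 and 25.7 FPKM in mural cells and 6.14, 7.06 and 6.32 FPKM in fragments. Mural cell library 1 was below all fragments and libraries 2 and 3 above them, and the adjusted p was 0.185. Without mural cell library 1 the ratio rose from 2.45 to 3.22 and the adjusted p was 0.010. *Ltbp2*, which does not bind latent TGF-beta, was not tested across genes, with 0.741, 1.85 and 0.202 FPKM against 1.55, 0.629 and 0.487 FPKM (exact permutation test, 2-sided, p 0.9). *Ltbp4* held 83.9 ± 3.52% of the sum of the 4 genes in fragments and 49.7 ± 7.34% in mural cells. 

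The secreted BMP antagonists of the list were rare in both groups. *Nog*, noggin, measured 0.983, 0 and 1.47 FPKM in mural cells, from 3, 0 and 2 read fragments, and 1.52, 1.51 and 1.25 FPKM in the microvascular fragments (adjusted p 0.400). *Chrdl1*, a chordin-like antagonist, measured 0.585, 1.38 and 3.42 FPKM against 0.976, 1.01 and 0.685 FPKM and overlapped (adjusted p 0.498). *Grem1*, gremlin 1, was not tested across genes. It measured 0.143, 0 and 0 FPKM in mural cells and 2.44, 0.479 and 0.544 FPKM in fragments, and the groups did not overlap (exact permutation test, 2-sided, p 0.1). With adjustment over the 4 members tested in this way the p was 0.4. A single read fragment in all mural cell libraries stood against 62 in the microvascular libraries, 44 of them in library 1. The ratio of pooled counts, 0.0655, had an exact 95% interval of 0.00163 to 0.379, which covers counting error only.

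*Skil* (ENSMUSG00000027660, chromosome 3, 30993980 to 31021499, plus strand) encodes SnoN, a nuclear repressor of Smad complexes that TGF-beta itself induces. It measured 31.1, 31.1 and 31.0 FPKM in mural cells and 122, 81.4 and 118 FPKM in fragments. The mural cell libraries were nearly identical, and all were far below the fragments. They rested on approximately 359, 151 and 159 read fragments, too few to measure so small a spread. The difference was 3.45-fold (log2 difference -1.73, SE 0.17, adjusted p 5.39e-04). *Bambi*, a receptor-like protein without a kinase that blocks type I receptors, measured 10.0, 10.5 and 10.2 FPKM against 11.9, 12.5 and 13.0 FPKM. The groups of *Bambi* did not overlap, but the ratio was 0.824 and the adjusted p 0.325. *Tgfbi*, a secreted matrix protein named for its induction by TGF-beta, measured 14.8, 33.6 and 22.0 FPKM against 21.0, 24.2 and 33.9 FPKM and overlapped (adjusted p 0.682).

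Of 82 further genes of the pathway listed by role, 81 were matched and 58 were tested, of which 16 were called higher and 8 lower, beside 9.34% and 13.0% of all genes. Of the 58, 3 reached 1 FPKM in 1 group only and so had to differ, and 2 of these were called. The extracellular regulators made up most of those higher, with 10 of 21 tested against 2 lower. Among them, *Lrrc32*, the GARP protein that tethers latent TGF-beta to the cell surface, measured 52.8, 91.4 and 72.3 FPKM in mural cells and 10.5, 13.8 and 10.5 FPKM in fragments, a ratio of 6.23. *Fbn2*, a fibrillin of the microfibrils to which latent TGF-beta is bound, had a ratio of 9.69, and *Emilin1*, which restrains the processing of TGF-beta, one of 4.02. *Fstl1*, a follistatin-like protein, was at 327 and 59.1 FPKM (ratio 5.54). The BMP antagonist *Nbl1*, at 111 and 12.2 FPKM, had a ratio of 9.10. *Dcn*, decorin, which binds TGF-beta, had a ratio of 7.33 and is also on the list of fibroblast markers, 6 of 7 of which were higher.

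*Sostdc1*, a BMP antagonist known from choroid plexus, was lower, at 1.46, 0 and 1.64 FPKM in mural cells and 20.8, 12.5 and 7.89 FPKM in fragments. Of the 5 markers of choroid plexus and ependyma, 3 were called lower with it. The 5 had a median of 22.6% of their level in fragments and sums of 206 to 249 FPKM against 664 to 1417 FPKM, and their part in the result was not tested. Of 8 other genes listed as ligands and tested, 3 were higher and 1 lower. One of those higher, *Bmp1*, is by its function a protease that frees latent TGF-beta and cleaves chordin, and was at 120 and 36.0 FPKM (ratio 3.33). *Nodal*, a ligand of embryo patterning, was at 6.97 and 1.45 FPKM (ratio 4.79). *Gdf15*, a stress-induced ligand, was listed at 0 in every mural cell library and at 4.14, 1.40 and 1.92 FPKM in fragments. It passed the filter only through the fragments and thus had to differ, so its call is no support for a difference.

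Of 17 other intracellular regulators tested, *Tgif1*, a repressor of Smad2 and Smad3, was the only one called, at 22.8, 29.0 and 17.4 FPKM in mural cells and 115, 51.2 and 78.8 FPKM in fragments. Of 4 other receptors and co-receptors tested, 1 was higher. Of 8 other target genes tested, 2 were higher and 4 lower. *Tagln*, a smooth muscle gene that TGF-beta induces, had a ratio of 12.3 and is also one of the smooth muscle markers, all 5 of which were higher. *Junb*, an early response gene, measured 54.1, 33.4 and 34.0 FPKM in mural cells and 310, 187 and 218 FPKM in fragments, and the 10 immediate early genes were lower with it.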

How the data were processed

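The deposited files hold 1 FPKM value per Ensembl gene and library. The authors ran TopHat2 2.0.4 against NCBIM37, took out duplicated reads with Picard 1.92 and obtained FPKM from Cufflinks 2.2.1, for each replicate on its own. Strand settings are not given in the sources used here.

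Identical repeats of 9 identifiers were dropped, which left 33460 genes, and symbols came from the GENCODE annotation of NCBIM37. Log2(FPKM + 1) was fitted with limma 3.58.1 (R 4.3.3), allowing for a trend with intensity. P-values were adjusted by Benjamini-Hochberg across the 14801 genes that reached 1 FPKM in 3 or more libraries. Genes were called at an adjusted p under 0.05, and a stricter rule also required a ratio of mean FPKM above 2 or under 0.5. Since FPKM are not counts, no count test was used. Shares, and members not tested across genes, were compared by exact permutation tests over libraries. P-values measure the spread between libraries, which may be partly technical. Fragments were recovered from FPKM for genes with a single transcript, and at least 98.1% of low values came out whole within 0.1. The fit was tested on simulated data with 200 genes changed and the same dispersion, 0.1, for all genes. That setting is simpler than these data, so it does not show how reliable the calls made here are. Other steps used Python 3.11.15 with pandas 2.3.3.

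All 44 members are named. Of the other pathway genes, those called under the stricter rule without overlap were named, at most the 14 with the largest log2 difference. Of these, 1 is not reported here. The members and lists were chosen with earlier results of these data known.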

Additional observations from a re-analysis of the deposited data

How the results depend on the processing

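Alternatives were a pseudocount of 0.1, no filter, a filter at 5 FPKM, median-ratio and quantile scaling, no intensity trend, genes at 0 in a group left out, an adjusted p under 0.01, the replicate number as a block, leaving out each library and, chosen after seeing the data, protein-coding genes only. No called member changed direction under any of them. Of the members tested, 3 of 5 higher and 5 of 9 lower ones kept their call under all of them. Of the 26 uncalled ones, 15 did so under all, and 6 more did so under those that tested them. At an adjusted p under 0.01, 769 genes were higher and 909 lower, with 3 members higher, 5 lower and 4 other pathway genes lower. *Tgfb1*, *Tgfb2*, *Bmp5*, *Tgfbr2*, *Smad7* and *Ltbp4* were the members lost. *Tgfb1* (adjusted p 0.0784) and *Tgfbr2* (0.0729) were also lost without an intensity trend. Leaving out 1 library gave 842 to 1316 genes higher and 719 to 2127 lower, 4 to 7 members higher and 6 to 10 lower, and 13 to 16 other pathway genes higher and 4 to 7 lower. The differences in share then lay between -39.0 and -30.8 points for *Tgfb1*, 16.1 and 21.9 for *Acvrl1*, 2.65 and 10.1 for the BMP Smads and 2.77 and 6.86 for *Id4*. Quantile scaling moved the median log2 difference of all genes from -0.12 to 0.00, with 1614 genes called higher and 1525 lower. *Bmp2*, *Bmp7* and *Inhbb*, none of them called, changed sign under it. With the replicate block, 5 members were higher and 8 lower, and *Tgfbr2* was lost (adjusted p 0.0625). Libraries of the same number deviated together with r of 0.0203 to 0.0818, and those of different numbers with r of -0.0613 to 0.0102. Each same-number r was thus above every other r, but all were small. The labels do not tell which animal a library came from, so the numbers were not taken as pairs in the main fit. The depth of the mural cell libraries was approximately 1 M protein-coding fragments in libraries 2 and 3. Of the members with a single transcript, this limits *Inhbb*, *Smad9*, *Nog* and *Grem1*, which rest on at most 11 fragments each there. By the approximation from the longest transcript, *Smad6* (8 and 11), which was called, was as thin. So were *Bmp4* (4 and 10), *Bmp7* (9 and 4), *Inhba* (0 and 3), *Ltbp2* (9 and 1) and *Chrdl1* (4 and 10).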
